A study of Homo sapiens with 18 samples.

Results

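The genes described here are 34 that neurons use to build axons, steer them and form synapses, read in 2 human prostate cancer cell lines. They were taken from a list of names, and each gene was read from 1 probe set, the one with the highest mean over the 18 arrays among those assigned to that gene alone. Of the 34 genes, 33 had such a probe set, out of 19752 genes in all, and EPHB2, an ephrin receptor, is not analysed here. A log2 value of 4 was taken as the level a probe set must pass, and 26 of the 33 passed it on at least 3 arrays and were tested, among 12156 genes tested in all. The 26 include genes that passed only in the group where they were high, so counts over them describe those 26 and not the whole list.

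The study asked what changes when ONECUT2, a homeobox transcription factor, is forced up or silenced in prostate cancer cells. RNA from 22Rv1, a line established from a xenografted prostate carcinoma, and from LNCaP, a line from a lymph node metastasis, was hybridised to Affymetrix U133 Plus 2.0 arrays. 22Rv1 cells formed 4 groups: control cells labelled vehicle, cells with an ONECUT2 overexpression construct, cells labelled scramble shRNA and cells labelled ONECUT2 shRNA. LNCaP cells formed 2 groups, control and ONECUT2 overexpression, and each of the 6 groups had 3 arrays. All cells grew in RPMI-1640 with 10% serum and antibiotics. The constructs were lentiviral, and cells took them up in 5 µg/mL polybrene, after which stable lines were selected with 5 µg/mL puromycin, a selection that the vehicle label of the controls does not mention. The overexpression vector held the full-length cDNA in a lentiviral backbone named for Myc and DDK tags and puromycin resistance. The labels name neither the promoter that drives it nor whether a stable line was 1 clone or a pool. They also leave unsaid whether the 3 arrays of each group come from different cultures, and the p-values therefore cover only array-to-array spread, which may be technical.

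Neurons are shaped by microtubules, on which tau and MAP2 sit, by neurofilaments, which fill the axon, and by stathmins, which loosen microtubules. Their axons are guided by secreted or membrane-bound ligands, the semaphorins, slits, netrins and ephrins, which act through plexins, ROBO receptors and Eph receptors. Transmitter leaves a nerve ending when vesicle proteins (VAMP, synaptotagmin) meet syntaxin on the membrane, and neuroligins and the L1 and contactin families hold the contact together. Some of these genes also appear in prostate tumours with neuroendocrine features. REST is the repressor that keeps many of them silent outside the nervous system, and SRRM4 is a splicing factor that can inactivate REST.

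ONECUT2 itself was read first, because it checks the labels. On its gene-level probe set the 22Rv1 controls read 8.23, 8.15 and 8.25 and the overexpression arrays 8.59, 8.81 and 8.85, a rise of 0.54 ± 0.16 (log2 change ± standard error of the fit, n = 3 and 3, adjusted p = 0.00702). In LNCaP the controls read 6.58, 6.53 and 6.72 and the overexpression arrays 7.23, 7.31 and 7.28, a rise of 0.66 ± 0.16 (adjusted p = 0.00153). In a fit of all probe sets the adjusted p of the 22Rv1 rise was 0.0130, and without overexpression replicate 3 that call was lost (0.49, adjusted p = 0.0568). The 5 probe sets of ONECUT2 disagreed. In 22Rv1 1 other was higher by 1.16 ± 0.15, while another fell from 5.04, 5.48 and 5.75 in control to 4.70, 4.35 and 4.32 (-0.97 ± 0.23, adjusted p = 0.00254 in the fit of all probe sets). A probe set that read 2.99, 2.74 and 3.04 in LNCaP control read 5.23, 7.17 and 7.43 under overexpression (adjusted p = 2.79e-06), and in 22Rv1 it went from 3.05, 3.44 and 3.25 to 4.78, 4.14 and 4.21. Where the probe sets lie on the vector's cDNA was not checked, so these values cannot separate the construct from the cell's own gene. The shRNA groups went against their labels: the arrays labelled scramble read 6.63, 6.71 and 7.08 and those labelled ONECUT2 shRNA 8.46, 9.0 and 9.12, so ONECUT2 was 4.15-fold higher in the latter (adjusted p = 7.32e-08), and 3 of its 5 probe sets were higher there. The 2 groups are therefore called the arrays labelled scramble and the arrays labelled ONECUT2 shRNA throughout, and no direction drawn from them is read as loss of ONECUT2.

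Other facts of the series bear on the members. The arrays' medians ran from 3.26 to 3.34 (log2). Within LNCaP overexpression, replicate 1 stood apart: its mean correlation with the LNCaP control arrays over all probe sets was 0.969, against 0.948 and 0.953 for replicates 2 and 3. In 22Rv1 overexpression the difference between the 3' and 5' beta-actin control probe sets, a sign of RNA quality, was 8.06 ± 0.70 (SD, n = 3) against 4.11 ± 0.41 in control (exact two-sided permutation p = 0.1, the smallest that 3 against 3 arrays allow). It lay between 2.85 and 4.27 in the means of the other groups. The same difference for GAPDH, a second control, moved less. It was -0.43 ± 0.13 (SD, n = 3) in 22Rv1 overexpression and -0.70 ± 0.09 in control (exact two-sided permutation p = 0.1). The part of RNA quality in the results was not tested. Of markers of mature neurons, 4 of 8 (RBFOX3, GAD2, ELAVL4 and INA) never passed 4. SYP, a synaptic vesicle protein used to mark neuroendocrine tumours, never passed 4 either. CHGA, a granule protein, rose by 0.78 ± 0.29 in 22Rv1 overexpression (adjusted p = 0.0260). Of leukocyte and endothelial markers 1 of 6 passed 4 on any array, and of glial markers 1 of 6, while of fibroblast and smooth muscle markers 6 of 8 did.

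Of the 33 members, 5 never passed 4 on any array: STMN2, a stathmin of growing axons, NEFM, the middle neurofilament subunit, DCX, a microtubule protein of migrating neurons, GAP43, the classical growth cone protein, and SEMA3A, a repelling guidance ligand. SYT1, the main calcium sensor of fast release, passed 4 on 1 array of the 18, at 4.05 on a scramble array. NTN4, a netrin, also did so on 1, at 4.28 in LNCaP overexpression replicate 1. For these 7 genes no group could be told from background, and they were not tested. STMN2 and GAP43 were therefore at background in every group, but other genes of growth cones and growing axons were not. The growth cone proteins BASP1 and DPYSL3 passed 4 on 15 and 12 of the 18 arrays. L1CAM, an adhesion molecule on growing axons, did so on 12. The tubulin TUBB3, the kinesin KIF5C and the microtubule-associated protein MAP1B passed 4 on all 18, and the neurofilament NEFL on 12.

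**Figure D1:**
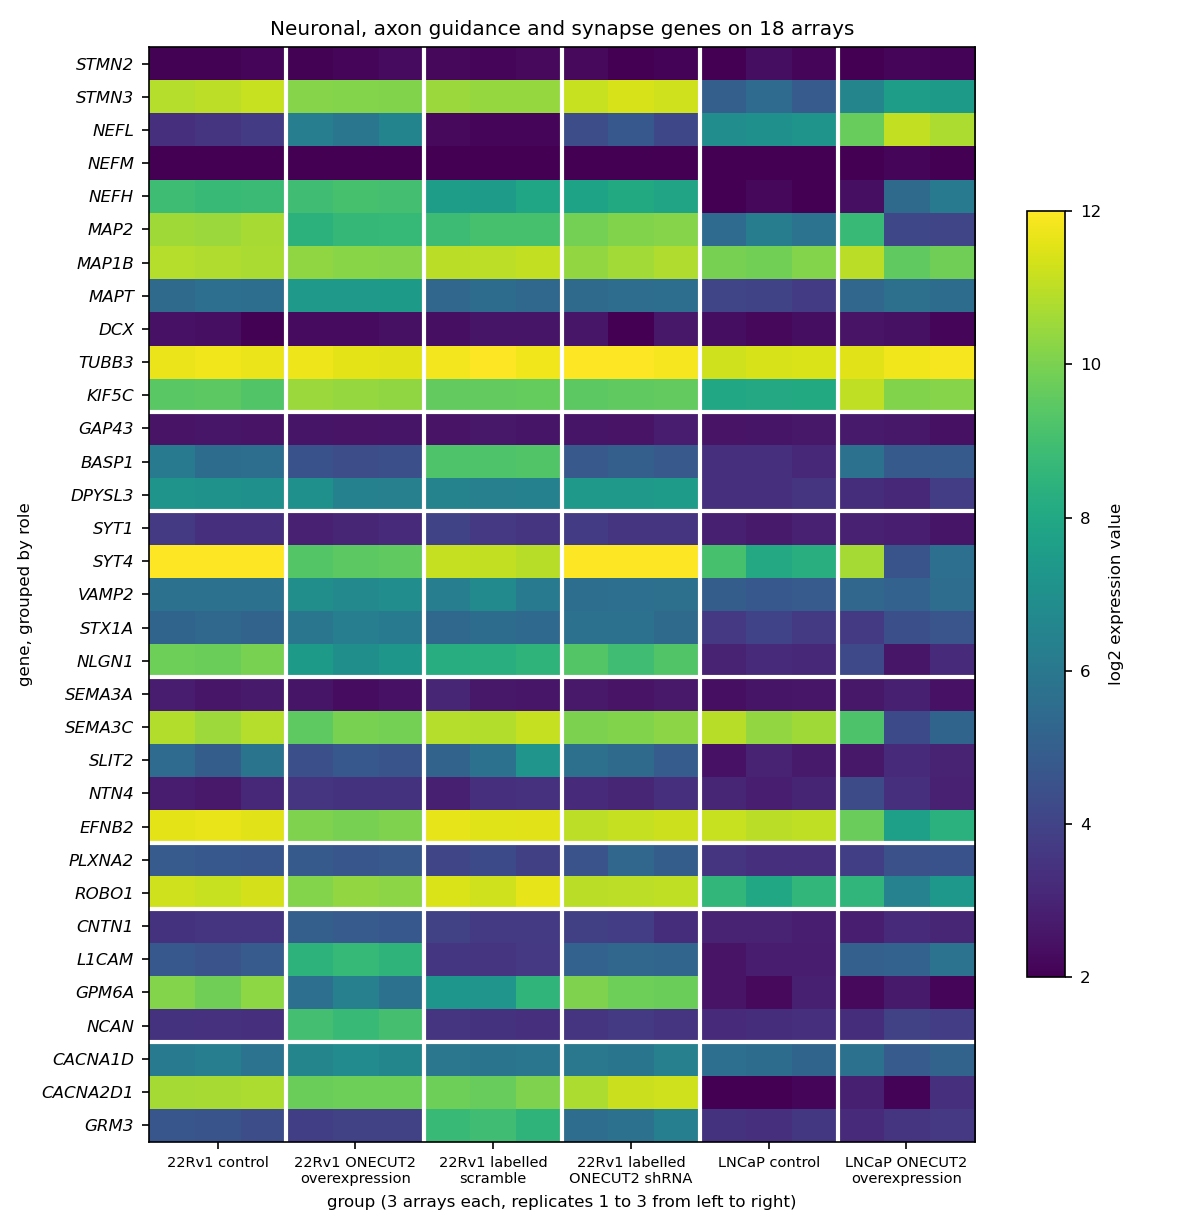
Log2 expression values (colour, from 2 or less to 12 or more) of the 33 members with a probe set (rows, grouped by role) on the 18 arrays (columns, 3 per group). The rows of STMN2, NEFM, DCX, GAP43 and SEMA3A stay dark throughout, GPM6A, NLGN1 and CACNA2D1 are bright in 22Rv1 and dark in LNCaP, and NCAN is bright only on the 3 arrays of 22Rv1 overexpression, where it read 8.74 to 9.03.

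Since ONECUT2 is the factor that was raised, stretches before the starts of tested members were searched for the letters of the ONECUT core motif. These are ATCAAT on either strand (ATTGAT on the other), and ATCGAT, a second core. The windows were the 250 bases before each RefSeq start site (GRCh38.p14), 37 windows for 22 of the tested genes. MAPT, NCAN, NEFH and NEFL were tested members without a window in this search. ATCAAT was found in 4 of the 37 windows (10.8%) and in 5.58% of 34943 windows of the same length over all genes, while ATCGAT was in 0 of the 37 and in 0.652% of all. The 4 genes with a match are shown: SYT4, a synaptotagmin, GRM3, a glutamate receptor, ROBO1, the receptor for slits, and DPYSL3, a growth cone protein. ROBO1 and DPYSL3 each have another window, which holds no match and is not shown. Capitals mark the match, which starts 163 bases before the start site for SYT4 (chr18:43277491-43277740, minus strand), 84 for GRM3 (chr7:86643659-86643908, plus strand), 154 for ROBO1 (chr3:79767999-79768248, minus strand) and 248 for DPYSL3 (chr5:147453693-147453942, minus strand). A match is a match of letters and shows no binding.
SYT4: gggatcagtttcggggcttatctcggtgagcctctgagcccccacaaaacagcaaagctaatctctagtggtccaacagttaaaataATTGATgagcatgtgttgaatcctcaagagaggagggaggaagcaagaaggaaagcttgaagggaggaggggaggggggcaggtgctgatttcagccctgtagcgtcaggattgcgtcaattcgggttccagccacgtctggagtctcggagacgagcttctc
GRM3: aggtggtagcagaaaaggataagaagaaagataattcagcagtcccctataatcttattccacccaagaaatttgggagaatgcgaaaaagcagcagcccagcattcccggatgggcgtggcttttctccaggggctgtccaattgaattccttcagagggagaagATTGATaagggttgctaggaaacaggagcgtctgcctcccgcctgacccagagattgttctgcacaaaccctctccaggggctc
ROBO1: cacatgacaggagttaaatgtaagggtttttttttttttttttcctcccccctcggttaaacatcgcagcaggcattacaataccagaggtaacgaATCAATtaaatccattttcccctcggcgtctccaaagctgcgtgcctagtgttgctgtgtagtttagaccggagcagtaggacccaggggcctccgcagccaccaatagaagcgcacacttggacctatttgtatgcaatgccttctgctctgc
DPYSL3: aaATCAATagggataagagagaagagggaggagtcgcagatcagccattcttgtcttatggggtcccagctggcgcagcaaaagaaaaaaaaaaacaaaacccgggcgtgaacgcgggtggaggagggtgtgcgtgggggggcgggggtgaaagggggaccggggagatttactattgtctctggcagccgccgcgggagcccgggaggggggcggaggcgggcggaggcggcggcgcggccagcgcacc

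The control cells of the 2 lines differed first of all. Of the 26 tested members 22 were lower in LNCaP control than in 22Rv1 control (CNTN1 among them, with all 6 arrays under 4) and 1 was higher, where 33.5% of all genes tested were lower and 30.2% higher (63.6% called in all). The median log2 difference of the members was -1.53, or -1.40 with members below background held at their bound, against -0.04 over all genes tested. The arrays of the 2 lines did not overlap in 24 of the 26 members, and in 79% of all genes tested. In the LNCaP controls, 12 of the 26 read under 4 on all 3 arrays, and in the 22Rv1 controls 3 did (CNTN1, NCAN and NEFL). Where the lower group read under 4 throughout, a fold is given as at least the distance from 4, with the adjusted p of the fit.

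CACNA2D1, the subunit that carries calcium channels to the surface, read 10.64, 10.71 and 10.77 in 22Rv1 control and 2.03, 1.97 and 2.13 in LNCaP control. It was at least 104-fold lower in LNCaP (limma adjusted p = 9.55e-15). GPM6A, a glycoprotein of neuronal membranes, read 10.16, 9.84 and 10.30 against 2.53, 2.24 and 2.90 and was at least 68.5-fold lower (adjusted p = 1.98e-12). In both genes the 3 arrays of each line lay far from those of the other. NLGN1, a postsynaptic adhesion protein, read 9.78, 9.74 and 9.97 against 2.95, 3.23 and 3.15, at least 56.9-fold lower (adjusted p = 2.82e-12). STMN3, a stathmin, read 10.87, 10.99 and 11.16 against 5.03, 5.49 and 4.87, 58.7-fold lower (adjusted p = 5.10e-13). NEFH, the heavy neurofilament subunit, read 8.89, 8.72 and 8.83 against 2.01, 2.23 and 1.83, at least 28.1-fold lower (adjusted p = 5.72e-08). These are all genes that 22Rv1 holds well above background and LNCaP holds at or near it. DPYSL3 was at least 8.64-fold lower, MAP2, which stabilises dendritic microtubules, 27.1-fold, SYT4 12.8-fold and ROBO1 7.25-fold. The size for DPYSL3 depends on the probe set. A second one read 5.09, 5.09 and 4.79 in 22Rv1 control and 4.44, 4.35 and 4.19 in LNCaP control. The single gene that was higher in LNCaP was NEFL, the light neurofilament subunit, at 6.89, 7.03 and 7.18 against 3.40, 3.55 and 3.73, at least 8.17-fold (adjusted p = 8.44e-09). So the light and heavy neurofilament subunits were on opposite sides: of the 2, only the light one passed 4 in LNCaP controls and only the heavy one in 22Rv1 controls. EFNB2, SEMA3C and NCAN were not called between the lines, with differences of -0.55 ± 0.31, -0.13 ± 0.80 and -0.12 ± 0.14. CACNA1D, a calcium channel pore subunit, was lower by the fit (-0.62 ± 0.20), a call that was lost without 22Rv1 control replicate 2 (-0.53) or LNCaP control replicate 3 (-0.50). EFNB2 came past the threshold without LNCaP overexpression replicate 1 or 2, at the same -0.55.

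**Figure D2:**
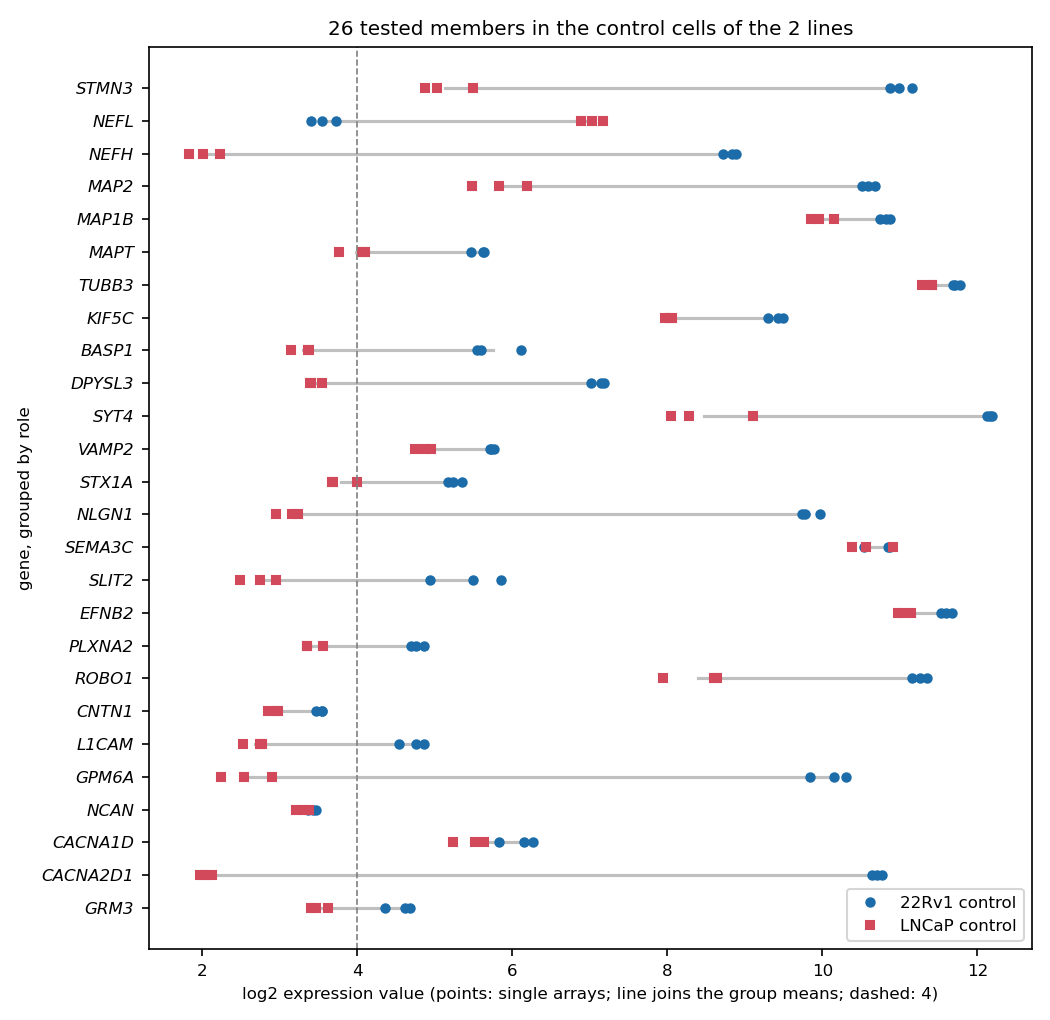
Log2 values of the 26 tested members (rows, grouped by role) on the 3 control arrays of 22Rv1 (circles) and of LNCaP (squares), with a line joining the group means and a dashed line at 4. LNCaP lies to the left for all but NEFL, with wide gaps for CACNA2D1, GPM6A, NLGN1 and NEFH, and SEMA3C, EFNB2 and NCAN lie close together.

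Members changed in both directions under ONECUT2 overexpression. In 22Rv1, 9 members rose and 12 fell of the 26, where 36.5% of all genes tested rose and 24.3% fell (60.8% called). Of these 9, NCAN and CNTN1 passed 4 only on the 22Rv1 overexpression arrays, so they were tested only through that group. In LNCaP, 13 were called higher and 3 fell, where 34.1% of all genes were higher and 28% lower (62.2% called). Of the 13, NCAN and CACNA2D1 read under 4 on all 6 LNCaP arrays, and with values under 4 set to 4 these and PLXNA2 were not called, which left 10. The median change was -0.54 in 22Rv1 against 0.10 over all genes, and 0.30 in LNCaP against 0.09 (with members held at their bound, -0.53 and 0.26). Treated and control arrays did not overlap in 23 members in 22Rv1 and 12 in LNCaP, where 76.7% and 58.2% of all genes had no overlap. The members called were 21 of 26 in 22Rv1 and 16 of 26 in LNCaP. Without 22Rv1 overexpression replicate 2, NCAN and CNTN1 no longer passed the filter, and 14 members were called in 22Rv1, 6 higher and 8 lower. Of all genes, 54.7% were then called. Without LNCaP overexpression replicate 1 the counts were 9 higher and 14 lower in 22Rv1, where 71.4% of all genes were then called, and 13 higher and 7 lower in LNCaP, where 72.6% were.

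Both overexpression groups also differed in cell division and prostate markers. Of all genes tested, 36.5% rose and 24.3% fell in 22Rv1, and 34.1% rose and 28% fell in LNCaP. Of 6 markers of dividing cells, 6 fell in 22Rv1 and 5 in LNCaP, with the mean level per array going from 11.5 to 11.6 in 22Rv1 control to 9.13 to 9.31, and from 11.2 in LNCaP control to 6.56 to 7.47. Of 10 luminal prostate markers, 3 rose and 5 fell in 22Rv1 and 2 rose and 5 fell in LNCaP, with mean levels per array going from 9.10 to 9.13 to between 8.14 and 8.30, and from 10.8 to between 8.21 and 9.29 in LNCaP. KLK3, the gene of prostate-specific antigen, read 13.26, 13.25 and 13.25 in LNCaP control and 9.13, 5.08 and 5.51 in LNCaP overexpression. Some markers of mature neurons and of neuroendocrine cells moved as well. The mean level per array of the 8 neuron markers was 3.96 to 4.08 in 22Rv1 control and 4.93 to 5.09 under overexpression. In LNCaP it was 2.69 to 2.84 in control and 3.18 to 3.50 under overexpression. The number with any array above 4 was 2 in 22Rv1 control and 4 under overexpression, and 0 and 2 in LNCaP. The LNCaP means therefore rest mainly on values under 4. Of the 4 neuron markers tested, 3 rose in 22Rv1 (GAD1 and SLC17A7, of transmitter synthesis and loading, and SYN1, a vesicle protein) and 2 in LNCaP (GAD1 and SLC17A7). GAD1 read 2.89, 2.63 and 2.52 in 22Rv1 control and 7.46, 6.65 and 6.27 under overexpression, and 2.28, 2.58 and 2.67 and 4.75, 4.49 and 4.84 in LNCaP, with no overlap in either line. The mean of the 8 neuroendocrine markers was 5.41 to 5.49 in 22Rv1 control and 5.80 to 5.98 under overexpression, with 2 of 5 higher (CHGA and ENO2, an enolase) and 1 lower (SCG3, a granule protein). In LNCaP that mean was 2.79 to 2.92 and 3.50 to 4.0, and 1 of 5 was higher. This was ENO2, which went from 3.45, 3.14 and 2.93 to 7.66, 9.02 and 9.06. Of the 8 neuroendocrine markers, 1 had any LNCaP control array above 4, and 2 had any under overexpression. The mean of the 8 fibroblast and smooth muscle markers was 4.14 to 4.21 in 22Rv1 control and 3.81 to 3.93 under overexpression. In LNCaP it was 3.91 to 3.97 in control and 4.39 to 4.7 under overexpression, with 2 and 3 of the 8 above 4 on any array. The part of these markers in the members' changes was not tested, and in these bulk samples fewer cells of a type cannot be told apart from less RNA per cell.

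**Figure D3:**
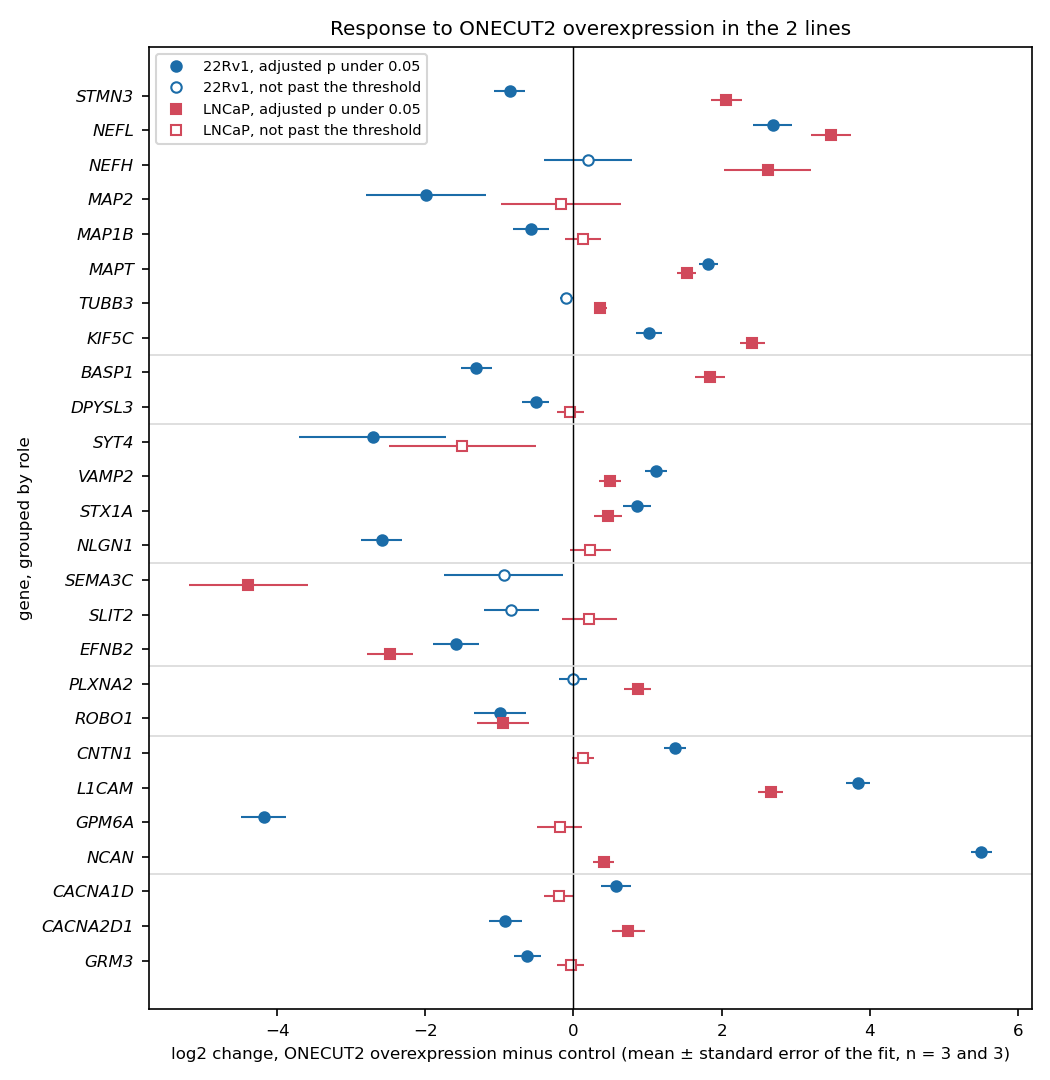
Log2 change under ONECUT2 overexpression (x axis, mean ± standard error of the fit, 3 arrays against 3) of the 26 tested members (rows, grouped by role) in 22Rv1 (circles) and LNCaP (squares), with filled symbols for adjusted p under 0.05. Both symbols lie far to the right for NEFL, MAPT, KIF5C and L1CAM, both lie to the left for EFNB2 and ROBO1, and STMN3 and BASP1 have a symbol on each side of 0.

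The members that rose in both lines were 6: NEFL, MAPT, KIF5C, L1CAM, VAMP2 and STX1A. They make up 54.5% of the 11 called higher in LNCaP with at least 1 LNCaP array above 4. Over all genes tested, whatever their level, that share was 63.8%. NCAN was called higher in both lines too, with overlapping groups under 4 in LNCaP. No share of the 9 members that rose in 22Rv1 is given. NCAN and CNTN1 among those 9 passed 4 only on the 22Rv1 overexpression arrays and were tested only through that group. In both lines 2 members fell (EFNB2 and ROBO1), which is 16.7% of the falls in 22Rv1 and 66.7% of those in LNCaP, against 58.2% and 50.4% over all genes. BASP1 and STMN3 were called in opposite directions. CACNA2D1 was too, but it read under 4 on all 6 LNCaP arrays. The change was called in 22Rv1 alone for CACNA1D, CNTN1, DPYSL3, GPM6A, GRM3, MAP1B, MAP2, NLGN1 and SYT4. It was called in LNCaP alone for NEFH, PLXNA2, SEMA3C and TUBB3, and SLIT2 was called in neither. On the probe sets read here, CNTN1, DPYSL3, GPM6A and GRM3 were under 4 on all 6 LNCaP arrays, and NLGN1 passed 4 there on 1. How many of all genes were called in 1 line alone or in opposite directions was not counted, so these names carry no share. The difference between the 2 changes was itself tested: 9 members had the higher change in LNCaP and 6 in 22Rv1, where 18.1% and 26.6% of all genes did (44.7% called). The 6 include NCAN and CNTN1. Some differences that were not called passed the threshold when 1 array was left out: EFNB2 (-1.46), NEFL (1.21) and GRM3 (0.73) without LNCaP overexpression replicate 1, GRM3 (0.58) without shRNA replicate 3, MAP1B (0.98) without LNCaP overexpression replicate 2, SLIT2 (1.05) without scramble replicate 3 and DPYSL3 (0.69) without 22Rv1 overexpression replicate 1.

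Among the cytoskeletal genes NEFL rose in both lines. It read 3.40, 3.55 and 3.73 in 22Rv1 control and 6.29, 5.92 and 6.52 under overexpression, at least 4.75-fold higher (adjusted p = 2.61e-07). In LNCaP it went from 6.89, 7.03 and 7.18 to 9.68, 11.07 and 10.78, 11.2-fold higher (adjusted p = 1.10e-08). All 3 treated arrays lay above all 3 controls in each line, and the lowest of the LNCaP treated arrays was replicate 1. The difference between the lines was not called (0.79 ± 0.38, adjusted p = 0.0992), but was with values under 4 set to 4 (1.23, adjusted p = 0.0131). NEFH was not called in 22Rv1 (8.89, 8.72 and 8.83 against 8.94, 9.08 and 8.99, 0.19 ± 0.59, adjusted p = 0.799). In LNCaP it went from 2.01, 2.23 and 1.83 to 2.40, 5.47 and 6.07, so that 2 of 3 treated arrays passed 4 and replicate 1 stayed with the controls. The fit gave at least 1.56-fold (adjusted p = 0.00118), and the change in LNCaP exceeded that in 22Rv1 by 2.43 ± 0.84 (adjusted p = 0.0273), a call lost without any 1 of 4 arrays: 22Rv1 control replicate 1 (2.39), LNCaP control replicate 3 (2.33), LNCaP overexpression replicate 2 (2.02) or 3 (1.72). With values under 4 set to 4 that difference was 0.99 and not called (adjusted p = 0.0950).

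MAPT, which encodes tau, rose in both lines. It went from 5.47, 5.64 and 5.63 to 7.40, 7.37 and 7.44 in 22Rv1 (3.54-fold, adjusted p = 3.89e-09) and from 4.10, 4.06 and 3.77 to 5.31, 5.70 and 5.52 in LNCaP (2.89-fold, adjusted p = 2.39e-08). The groups did not overlap in either line, and the difference of the changes was -0.29 ± 0.18 (adjusted p = 0.191). KIF5C, a kinesin motor that carries cargo along axons, rose more in LNCaP. It went from 9.42, 9.49 and 9.29 to 10.49, 10.43 and 10.33 in 22Rv1 (1.02 ± 0.17 log2, adjusted p = 9.21e-05) and from 7.97, 8.02 and 8.06 to 11.05, 10.09 and 10.17 in LNCaP (2.42 ± 0.17, adjusted p = 4.76e-09). LNCaP controls were the lower of the 2 control groups, and under overexpression the ranges overlapped, 10.33 to 10.49 in 22Rv1 and 10.09 to 11.05 in LNCaP. The excess in LNCaP was 1.40 ± 0.25 (adjusted p = 2.48e-04).

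STMN3 moved in opposite directions. It fell from 10.87, 10.99 and 11.16 to 10.17, 10.15 and 10.12 in 22Rv1 (-0.86 ± 0.21, adjusted p = 0.00204) and rose from 5.03, 5.49 and 4.87 to 6.55, 7.59 and 7.45 in LNCaP (2.07 ± 0.21, adjusted p = 3.10e-07). The difference was 2.93 ± 0.30 (adjusted p = 1.08e-06), and even so all LNCaP arrays stayed below all 22Rv1 arrays. TUBB3, the tubulin used as a neuronal marker, read 11.69, 11.78 and 11.71 and 11.75, 11.59 and 11.54 in 22Rv1 and was not called (-0.10 ± 0.09), while in LNCaP it rose from 11.29, 11.41 and 11.41 to 11.57, 11.79 and 11.84 (0.36 ± 0.09, adjusted p = 0.00212). Its probe set has the suffix that Affymetrix gives to sets sharing probes with other transcripts, so other tubulins may contribute. With its other probe set TUBB3 was called neither in LNCaP (0.19, adjusted p = 0.103) nor in the difference between the lines (0.29, adjusted p = 0.0963). TUBB3 was high in every group.

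The microtubule-associated proteins MAP2 and MAP1B fell in 22Rv1. MAP2 went from 10.59, 10.51 and 10.67 to 8.41, 8.68 and 8.70 (-1.99 ± 0.81, adjusted p = 0.0450), and MAP1B from 10.87, 10.82 and 10.75 to 10.33, 10.22 and 10.17 (-0.57 ± 0.24, adjusted p = 0.0499). The 22Rv1 groups did not overlap for either gene, and the standard errors rest on 1 estimate of the spread over all 18 arrays, LNCaP overexpression included. Both calls were lost without any 1 of the 15 arrays outside LNCaP overexpression (-1.90 to -2.05 for MAP2, -0.54 to -0.62 for MAP1B), and both were kept without LNCaP overexpression replicate 1 or with the 6 arrays of 22Rv1 alone (adjusted p = 1.64e-09 and 9.94e-06). In LNCaP neither was called (-0.17 ± 0.81 and 0.13 ± 0.24).

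Of the 2 growth cone proteins tested, BASP1, a membrane-bound partner of GAP43, moved in opposite directions. In 22Rv1 it fell from 6.11, 5.54 and 5.60 to 4.52, 4.36 and 4.43 (-1.31 ± 0.20, adjusted p = 3.62e-05). In LNCaP it rose from 3.38, 3.36 and 3.15 to 5.75, 4.85 and 4.83, at least 2.21-fold (adjusted p = 8.29e-07). The order of the lines turned: the controls were lower in LNCaP, while under overexpression LNCaP read 4.83 to 5.75 and 22Rv1 4.36 to 4.52. The difference of the changes was 3.16 ± 0.29 (adjusted p = 3.58e-07). DPYSL3 fell slightly in 22Rv1, from 7.18, 7.14 and 7.01 to 7.04, 6.40 and 6.37 (-0.51 ± 0.18, adjusted p = 0.0200), with overlapping groups. That call was lost without any 1 of 22Rv1 control replicates 1 (-0.48) and 2 (-0.49) and overexpression replicates 2 (-0.41) and 3 (-0.39). In LNCaP DPYSL3 stayed under 4 on all 6 arrays of this probe set. A second DPYSL3 probe set read 4.44, 4.35 and 4.19 in LNCaP control and 3.89, 3.87 and 3.42 under overexpression.

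Of the release genes tested, VAMP2 and STX1A were called higher in both lines, and the synaptotagmin SYT4 was called lower in 22Rv1 alone. VAMP2, the vesicle protein that pairs with syntaxin, went from 5.77, 5.73 and 5.72 to 6.95, 6.71 and 6.89 in 22Rv1 (1.11 ± 0.15, adjusted p = 9.52e-06) and from 4.95, 4.74 and 4.87 to 5.30, 5.16 and 5.58 in LNCaP (0.49 ± 0.15, adjusted p = 0.0104). STX1A, the syntaxin of nerve endings, went from 5.24, 5.36 and 5.17 to 5.93, 6.26 and 6.14 in 22Rv1 (0.86 ± 0.19, adjusted p = 9.75e-04) and from 3.67, 4.0 and 3.68 to 3.69, 4.43 and 4.63 in LNCaP (0.47 ± 0.19, adjusted p = 0.0421). Treated and control arrays did not overlap in 22Rv1 for both genes, whereas in LNCaP the STX1A groups overlapped. The LNCaP call of STX1A was lost without any 1 of 9 arrays (0.28 to 0.47): LNCaP control replicates 1 and 3, LNCaP overexpression replicates 2 and 3, 22Rv1 control replicates 1 and 3, 22Rv1 overexpression replicate 3 and scramble replicates 1 and 3, and that of VAMP2 without LNCaP overexpression replicate 3 (0.37). With the VAMP2 probe set of largest variance the LNCaP change was 0.17 and not called (adjusted p = 0.454), and with array weights it was 0.37 (adjusted p = 0.294). VAMP2 rose less in LNCaP by the test of the difference (-0.62 ± 0.22, adjusted p = 0.0274), a call lost without any 1 of 6 arrays (-0.53 to -0.62): 22Rv1 control replicate 3, 22Rv1 overexpression replicates 1 and 3, LNCaP control replicates 1 and 3 and LNCaP overexpression replicate 2. Its probe set carries the same suffix for shared probes. SNAP25, the third partner in the complex and no member of the list, read 8.06, 8.12 and 8.41 in 22Rv1 control and 8.26, 8.36 and 8.29 under overexpression, a change of 0.11 ± 0.17 (adjusted p = 0.616), and stayed under 4 on all 6 LNCaP arrays.

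SYT4, a synaptotagmin of dense-core vesicles, fell from 12.19, 12.12 and 12.16 to 9.31, 9.47 and 9.55 in 22Rv1 (-2.71 ± 0.99, adjusted p = 0.0275). The 2 groups were more than 2 log2 units apart and did not overlap. The call was lost without any 1 of the 6 arrays compared (-2.64 to -2.77, adjusted p up to 0.0636), and in a fit of these 6 arrays alone the adjusted p was 4.72e-11. NLGN1 fell from 9.78, 9.74 and 9.97 to 7.43, 6.97 and 7.31 in 22Rv1 (6.03-fold, adjusted p = 5.74e-07). In LNCaP it read 2.95, 3.23 and 3.15 and 4.22, 2.61 and 3.19, so only replicate 1 passed 4 (0.23 ± 0.28, adjusted p = 0.487). Without LNCaP overexpression replicate 2 that change was 0.60 and past the threshold. The difference between the lines was called (adjusted p = 2.61e-05), in a gene that LNCaP holds at background.

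None of the 3 guidance ligands tested (EFNB2, SEMA3C and SLIT2) rose in either line. EFNB2, a membrane-bound ephrin that marks arteries and steers axons, fell in both: from 11.60, 11.67 and 11.54 to 10.05, 9.94 and 10.07 in 22Rv1 (3.00-fold, adjusted p = 3.68e-04) and from 11.14, 10.98 and 11.04 to 9.71, 7.65 and 8.37 in LNCaP (5.57-fold, adjusted p = 4.16e-06). The groups did not overlap in either line. SEMA3C, a secreted semaphorin, fell in LNCaP from 10.91, 10.38 and 10.56 to 9.20, 4.26 and 5.21 (21.0-fold, adjusted p = 2.19e-04). Replicates 2 and 3 lay far below the controls and replicate 1 less far below. In 22Rv1 it read 10.85, 10.53 and 10.87 and 9.51, 10.00 and 9.92, not called in the fit of all arrays (-0.94 ± 0.80, adjusted p = 0.328) but called without LNCaP overexpression replicate 1 (adjusted p = 2.09e-04) or with the 22Rv1 arrays alone (2.18e-05), and a second SEMA3C probe set fell by 1.74. The difference between the lines was -3.45 ± 1.13 (adjusted p = 0.0223), a call lost without LNCaP overexpression replicate 2 (-2.47) or 3 (-2.94). SLIT2, the secreted ligand of ROBO receptors, read 5.49, 4.93 and 5.85 and 4.43, 4.74 and 4.58 in 22Rv1, all treated arrays below all controls but not called (-0.84 ± 0.37, adjusted p = 0.0619). It passed the threshold without any 1 of 22Rv1 control replicate 2 (-1.08), scramble replicates 1 and 3, and LNCaP overexpression replicate 1 (-0.84 in these).

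The receptors ROBO1 and PLXNA2 went different ways. ROBO1 fell from 11.26, 11.15 and 11.35 to 10.16, 10.38 and 10.25 in 22Rv1 (-0.99 ± 0.35, adjusted p = 0.0212) and from 8.61, 7.95 and 8.64 to 8.58, 6.42 and 7.35 in LNCaP (-0.95 ± 0.35, adjusted p = 0.0259). In 22Rv1 the groups were apart, while in LNCaP replicate 1 read like the controls and only replicates 2 and 3 were lower. The 22Rv1 call was lost without control replicate 3 (-0.94) or overexpression replicate 1 (-0.94). The LNCaP call was lost without LNCaP control replicate 1 (-0.85) or 3 (-0.83) or overexpression replicate 2 (-0.43) or 3 (-0.90), and in a fit of the LNCaP arrays alone (adjusted p = 0.189). PLXNA2, a plexin that transduces semaphorin signals, read 4.87, 4.76 and 4.69 and 4.84, 4.67 and 4.77 in 22Rv1 (-0.01 ± 0.18, adjusted p = 0.972) and went from 3.56, 3.35 and 3.35 to 3.85, 4.47 and 4.54 in LNCaP, at least 1.22-fold (adjusted p = 6.80e-04), with 2 of 3 treated arrays above 4. With values under 4 set to 4 that call was lost (0.34, adjusted p = 0.0747), as was the difference between the lines (adjusted p = 0.214). Its probe sets disagreed: a second one rose by 0.97 ± 0.14 in 22Rv1 (adjusted p = 1.15e-05 in a fit of all probe sets) and changed by 0.025 in LNCaP, where it was not called, so the line in which PLXNA2 rose depends on the probe set.

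Adhesion, membrane and matrix proteins changed in both directions in 22Rv1. NCAN, a proteoglycan of brain matrix, went from 3.47, 3.42 and 3.37 to 9.01, 8.74 and 9.03, from background on every control array to well above it on every treated one, at least 30.5-fold (adjusted p = 1.51e-13). L1CAM, an adhesion molecule on growing axons, went from 4.76, 4.54 and 4.86 to 8.46, 8.71 and 8.51 in 22Rv1 (14.3-fold, adjusted p = 2.17e-11) and from 2.53, 2.75 and 2.77 to 5.06, 5.15 and 5.82 in LNCaP, at least 2.54-fold (adjusted p = 7.19e-10). L1CAM passed 4 on all 3 treated LNCaP arrays and on 0 of the 3 controls. NCAN in LNCaP read 3.21, 3.30 and 3.38 and 3.32, 3.96 and 3.84: the fit called a change of 0.41 ± 0.14 (adjusted p = 0.0195), but every array was under 4, and the call was lost without LNCaP control replicate 1 (0.36) or overexpression replicate 2 (0.28) or 3 (0.34). With values under 4 set to 4 NCAN had no change in LNCaP. The change of L1CAM differed between the lines by -1.18 ± 0.23 (adjusted p = 6.65e-04). CNTN1, a contactin of axon and glia contacts, went from 3.47, 3.55 and 3.54 to 5.05, 4.88 and 4.75 in 22Rv1, at least 1.86-fold (adjusted p = 5.61e-07), and stayed under 4 on all LNCaP arrays. GPM6A went the other way, from 10.16, 9.84 and 10.30 to 5.65, 6.35 and 5.75 in 22Rv1 (log2 change -4.19 ± 0.30, adjusted p = 6.18e-09), and in LNCaP it was under 4 before and after. In this class, then, L1CAM, NCAN and CNTN1 rose and GPM6A fell in 22Rv1, and only L1CAM rose above background in LNCaP. NCAN and CNTN1 each passed 4 on the 3 arrays of 22Rv1 overexpression alone. They were tested only through that group, so no share of the class is drawn from them.

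The channel and receptor genes changed less. CACNA1D read 6.15, 6.26 and 5.83 and 6.55, 6.82 and 6.59 in 22Rv1 (0.57 ± 0.20, adjusted p = 0.0198), a call lost without 22Rv1 control replicate 3 (0.45) or overexpression replicate 2 (0.49). In LNCaP it read 5.64, 5.52 and 5.23 and 5.75, 4.86 and 5.18 (-0.20 ± 0.20), not called, although a second probe set rose by 0.60 and, without LNCaP overexpression replicate 1, the first one was lower at -0.44 and past the threshold. CACNA2D1 fell from 10.64, 10.71 and 10.77 to 9.75, 9.80 and 9.79 in 22Rv1 (-0.92 ± 0.22, adjusted p = 0.00188). In LNCaP the fit called a rise of 0.74, with all 6 arrays under 4 and the call lost without LNCaP overexpression replicate 3 (0.46). GRM3 was low in 22Rv1 control at 4.68, 4.61 and 4.35 and read 3.84, 3.97 and 3.97 under overexpression, at least 1.46-fold lower (adjusted p = 0.00698), from just above 4 to just under it, and it stayed under 4 in LNCaP. The difference between the lines was called for CACNA2D1, which LNCaP holds at background, and for CACNA1D (-0.77 ± 0.28), the latter lost without any 1 of 6 arrays (-0.57 to -0.75): 22Rv1 control replicate 3, 22Rv1 overexpression replicate 2, LNCaP control replicates 1 and 2 and LNCaP overexpression replicates 2 and 3.

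LNCaP overexpression replicate 1 changes the account of several members. For 9 of the 26 it lay more than 1 log2 unit from the mean of replicates 2 and 3, while those 2 lay more than 1 unit apart for 2 of 26. The same counts were not made over all genes tested, so they are not read as particular to the members. SYT4 read 9.11, 8.04 and 8.28 in LNCaP control and 10.67, 4.61 and 5.65 under overexpression, and MAP2 5.48, 6.19 and 5.82 and 8.73, 4.15 and 4.10. In both genes replicate 1 was above all controls and replicates 2 and 3 below them. The fit called neither (-1.50 ± 0.99 and -0.17 ± 0.81), whereas without replicate 1 SYT4 was lower by the fit at -3.35 (adjusted p = 7.27e-10) and MAP2 at -1.71 (adjusted p = 1.52e-08). MAP1B turned sign, from 0.13 to -0.30 and past the threshold (adjusted p = 0.0261). SEMA3C, EFNB2 and ROBO1 fell in both fits, with -5.88, -3.04 and -1.51 without replicate 1, and NEFH rose by 3.74. In a fit of the LNCaP arrays alone, which keeps replicate 1, 6 of the 16 calls were lost: NEFH (adjusted p = 0.0513), VAMP2 (0.0553), CACNA2D1 (0.0864), NCAN (0.131), ROBO1 (0.189) and STX1A (0.193). Over all genes tested, 7557 were called in the fit of all arrays and 5403 in the fit of the LNCaP arrays alone. In MAPT and L1CAM replicate 1 lay close to the other treated arrays, in KIF5C above them and in STMN3 below them, and in these 4 genes all treated arrays lay above all controls. KLK3 had the same split of 1 array against 2.

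**Figure D4:**
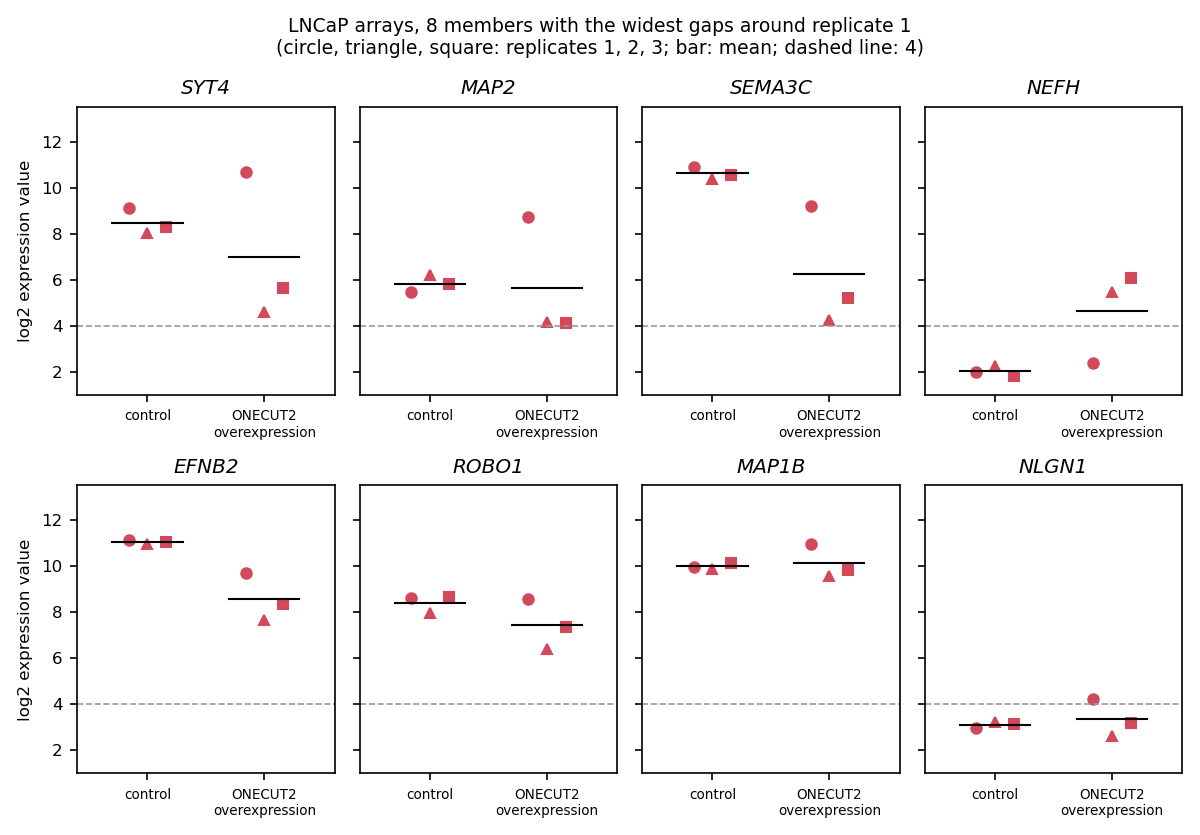
Log2 values on the LNCaP control and ONECUT2 overexpression arrays (circle, triangle and square for replicates 1, 2 and 3, bar for the mean, dashed line at 4) of the 8 members in which replicate 1 lay furthest from replicates 2 and 3. Replicate 1 is the high one in SYT4, MAP2 and SEMA3C and the low one in NEFH, where it reads 2.40 against 5.47 and 6.07.

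The arrays labelled ONECUT2 shRNA and those labelled scramble differed in 11 members, 8 higher and 3 lower of 26 in the former, where 13.4% of all genes tested were higher and 16.1% lower (29.6% called). The median difference was 0.15 against -0.03 over all genes. The groups did not overlap in 19 members and in 53.6% of all genes. Without LNCaP overexpression replicate 1 the counts were 10 higher and 6 lower, where 45.1% of all genes were then called. BASP1 read 9.25, 9.24 and 9.28 on the scramble arrays and 4.80, 5.04 and 4.81 on the shRNA arrays, a difference of -4.38 ± 0.20 (adjusted p = 2.40e-10). GRM3 read 8.78, 8.95 and 8.50 against 5.58, 5.73 and 6.31, a difference of -2.87 ± 0.18 (adjusted p = 8.63e-09). The scramble arrays were the highest of the 6 groups for both genes, above control and overexpression arrays too. VAMP2 was the third lower gene, at 6.27, 6.79 and 6.15 against 5.60, 5.65 and 5.70 (-0.75 ± 0.15, adjusted p = 0.00144).

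The 8 higher members were of several roles. NEFL read 2.26, 2.16 and 2.16 on the scramble arrays and 4.35, 4.74 and 4.17 on the shRNA arrays, at least 1.34-fold (adjusted p = 1.22e-05), a call lost with values under 4 set to 4 (0.42, adjusted p = 0.265). L1CAM read 3.59, 3.53 and 3.67 against 5.15, 5.29 and 5.28, at least 2.36-fold (adjusted p = 1.67e-06). GPM6A read 7.24, 7.23 and 8.53 against 10.06, 9.78 and 9.74 (4.58-fold, adjusted p = 4.40e-05), with scramble replicate 3 above its other 2. No shRNA array overlapped a scramble array in these 3 genes. CACNA2D1 was 2.38-fold higher, DPYSL3 2.02-fold, PLXNA2 1.82-fold, STMN3 1.80-fold and NLGN1 1.79-fold (adjusted p from 4.20e-04 for DPYSL3 to 0.0302 for NLGN1). The NLGN1 call was lost without scramble replicate 1 (0.78) or 2 (0.81) or shRNA replicate 1 (0.78) or 3 (0.78). MAP2 and SYT4, not called at 1.06 ± 0.81 and 1.34 ± 0.99, had groups that did not overlap, and both passed the threshold without LNCaP overexpression replicate 1. That omission also brought SEMA3C, EFNB2 and MAP1B past it, at -0.81, -0.44 and -0.40, and omitting scramble replicate 1 did so for SLIT2, at -1.14.

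Both shRNA groups can also be set against the 22Rv1 control arrays, so these comparisons share arrays with each other and with the preceding one. The arrays labelled scramble differed from control in 10 members, 3 higher and 7 lower, where 12.5% of all genes were higher and 9.4% lower (21.9% called). The groups did not overlap in 19 members and in 50% of all genes. BASP1 was 11.4-fold higher on the scramble arrays (adjusted p = 5.78e-09), GRM3 18.3-fold (adjusted p = 3.17e-10) and VAMP2 1.59-fold (adjusted p = 0.00493). In BASP1 and GRM3 the scramble arrays lay far above the controls. GPM6A was 5.40-fold lower, NLGN1 2.81-fold, CACNA2D1 1.82-fold, DPYSL3 1.62-fold and PLXNA2 1.62-fold, L1CAM was at least 1.65-fold lower, and NEFL was lower with both groups under 4. PLXNA2 lost its call without control replicate 1 (-0.65) or scramble replicate 3 (-0.60). Without LNCaP overexpression replicate 1, 4 members were higher and 11 lower, where 38.3% of all genes were called, with MAP2 (-1.59), SYT4 (-1.10), NEFH (-1.13), STMN3 (-0.57) and KIF5C (0.22) added. STMN3 was also past the threshold without LNCaP control replicate 2 or overexpression replicate 2.

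The arrays labelled ONECUT2 shRNA differed from control in 2 of the 26 members, 1 higher and 1 lower, where 2.35% of all genes were higher and 2.11% lower (4.46% called). The groups did not overlap in 18 members and in 34.8% of all genes. GRM3 was 2.51-fold higher (adjusted p = 4.64e-04) and BASP1 1.82-fold lower (adjusted p = 0.0234). The BASP1 call was lost without any 1 of 5 arrays, control replicates 1 and 3 or shRNA replicates 1, 2 and 3, with values from -0.69 to -0.94. With the 6 arrays compared alone 14 members were called, and with array weights 13. Without LNCaP overexpression replicate 1, 5 members were higher and 6 lower, where 16% of all genes were called. NEFL, L1CAM and TUBB3 were then among the higher ones, at 0.86, 0.52 and 0.27, and NEFH, NLGN1 and MAP2 among the lower ones, at -0.91, -0.65 and -0.53. NEFL also passed the threshold without LNCaP overexpression replicate 2, and L1CAM without replicate 3.

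**Figure D5:**
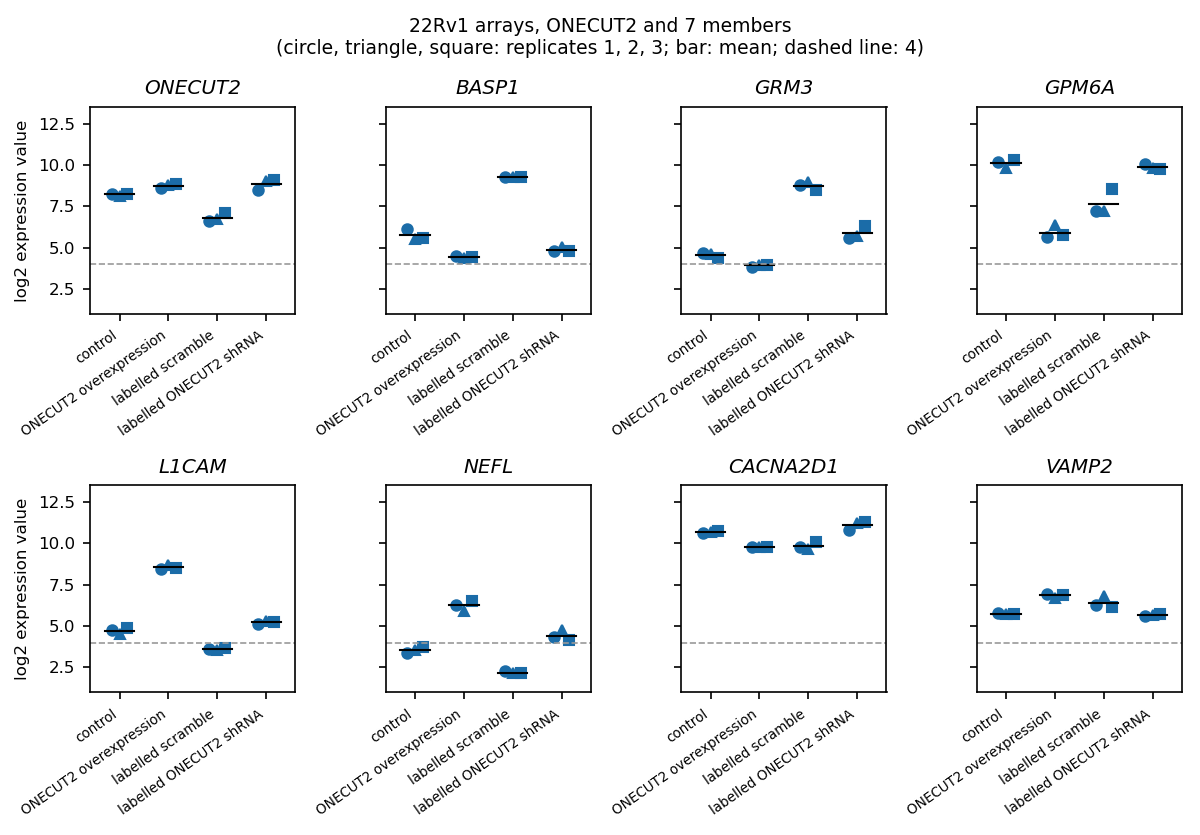
Log2 values of ONECUT2 and 7 members on the 12 arrays of 22Rv1 (circle, triangle and square for replicates 1, 2 and 3, bar for the mean, dashed line at 4). The arrays labelled scramble are the lowest group for ONECUT2 and for L1CAM, where they read under 4, and by far the highest for BASP1 and GRM3, at 9.24 to 9.28 and 8.50 to 8.95, and overexpression has the highest mean for L1CAM, NEFL and VAMP2.

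Other genes of the same pathways were read from lists of 225 genes, of which 132 were tested. In 22Rv1 overexpression 61 rose and 26 fell, and in LNCaP overexpression 60 rose and 26 fell, with median changes of 0.36 and 0.25. All genes tested were called higher in 36.5% and lower in 24.3% in 22Rv1, and in 34.1% and 28% in LNCaP. In both lines the cytoskeletal list counted more rises than falls, 14 against 3 of 27 in 22Rv1 and 15 against 5 in LNCaP. The vesicle release list counted 12 against 4 of 28 in each line. On the shRNA arrays 36 were higher and 18 lower than on the scramble arrays (all genes, 13.4% and 16.1%). Between the control lines 66 of the 132 were lower in LNCaP and 29 higher (all genes, 33.5% and 30.2%).

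In 22Rv1 VAMP1, a relative of VAMP2, rose by 3.38 ± 0.34, EFNB3, an ephrin, by 2.95 ± 0.19, and PLXNC1, a plexin, at least 4.54-fold. Falls in 22Rv1 included EPHA3 and EPHA6, ephrin receptors, at -3.44 ± 0.30 and -2.93 ± 0.56, and SEMA6A, a semaphorin, at -2.60 ± 0.19. Rises in LNCaP included tubulins: TUBB6 went from 4.52, 4.24 and 4.14 to 10.80, 11.16 and 11.40 (6.82 ± 0.16), TUBA1A from 8.32, 8.46 and 8.41 to 15.03, 13.93 and 14.50 (6.09 ± 0.17), and TUBB2B rose at least 17.5-fold. Tubulin genes are near-identical in part, so their probe sets may share signal. EPHA3 fell in LNCaP too, at least 18-fold, with SLITRK6, a synaptic adhesion protein, at least 14.5-fold lower and RIMS1, an active zone protein, at -4.12 ± 0.82, with the treated arrays at 8.07, 2.98 and 3.94. The change in LNCaP minus that in 22Rv1 was 5.83 for TUBB6, 4.57 for TUBA1A, and -3.68 for RGMB. TUBB2B, SLITRK6 and RIMS1 also differed, and each read under 4 in 1 of the groups compared, so no size is given.

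In the control cells NRP1, a semaphorin receptor, RIMS1 and NLGN4X, a neuroligin, were higher in LNCaP, at 4.88 ± 0.53 and 4.68 ± 0.82 and at least 9.68-fold. TUBB2B and RIMS2 were at least 34.5-fold and 37.7-fold lower there, and TUBB6 96.7-fold. On the shRNA arrays against the scramble arrays, CHL1, a relative of L1CAM, was at least 5.57-fold higher, NRCAM, another, 6.05-fold and VAMP3 4.65-fold. EPHA5, NRP1 and STXBP5 were lower, at -2.07 ± 0.25, -1.78 ± 0.53 and -1.63 ± 0.22. Against control, the scramble arrays were higher in CNTN3, STXBP5 and VAMP1 (1.42, 1.33 and 1.14) and lower in VAMP3 and NRCAM (-1.92 and -1.88), and CHL1 was at least 2.96-fold lower. The shRNA arrays were higher than control in VCAN, NFASC and SLC17A7 (1.16, 1.09 and 0.95) and lower in EPHA5 (-1.18). The scramble arrays, which both comparisons use, read 3.47, 3.26 and 3.58 for CHL1 and 4.01, 4.51 and 3.93 for NRCAM.

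Of the regulators of neuronal genes, REST read between 9.63 and 10.7 on all 18 arrays. It was 0.51 ± 0.17 higher in 22Rv1 overexpression (adjusted p = 0.0146) and was not called in LNCaP (0.02 ± 0.17). SRRM4 fell in 22Rv1 from 7.97, 7.97 and 8.01 to 5.23, 5.45 and 5.62 (-2.55 ± 0.13, adjusted p = 1.92e-10), and in LNCaP it stayed under 4 on every array. REST was thus present in both lines, and SRRM4 in 22Rv1 alone.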

How the data were processed

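RNA from 18 samples of 2 cell lines, 6 groups of 3 arrays, was read on Affymetrix U133 Plus 2.0 arrays with 54675 probe sets. The deposited values are log2 expression made by the authors with GCRMA, per the submitters' processing notes; neither its version nor joint or separate normalization of the arrays is recorded there. Probe sets were named through GEO's platform annotation, with symbols updated by gene identifier: 41097 have 1 symbol (41043 updated so), 1801 several and 11777 none or belong to the 62 controls, and only the first were used. Each gene took its probe set with the highest mean, and genes above 4 on at least 3 arrays were tested. GCRMA pulls dim probe sets together, so a value under 4 gives only a bound, and a fold against it is the brighter group's mean minus 4.

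A group-means model over the 18 arrays was fitted with limma 3.58.1 in R 4.3.3 (lmFit, eBayes with trend and robust options), with Benjamini-Hochberg adjustment over 12156 genes and a threshold of 0.05; every adjusted p is from it unless said otherwise. Changes are log2 values ± standard error. The fit was tried on simulated data with 12156 genes, some changed by 0.5, 1 and 2 log2 units. It recovered 32.8%, 82.1% and 98.5% of these in the 22Rv1 overexpression comparison. In the test of the difference between lines it recovered 13.4%, 49.3% and 89.4%. The simulation changed few genes and gave all groups the same spread, unlike these arrays, so recovery here may differ. All members are named, and of the pathway genes the 3 with the largest called rises and falls per comparison whose groups do not overlap; KLK3, CHGA, SYP, SNAP25 and REST are named whatever their result, and SRRM4, RBFOX3, GAD1, GAD2, SYN1, ENO2, SCG3, ELAVL4 and INA were named after their values were seen. The members and lists were chosen with earlier results of these data known. Alternatives were scaling, filters, the choice of probe set, a floor, other variance settings, the replicate block and leaving out each array. The number of arrays limits the precision.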

Additional observations from a re-analysis of the deposited data

Results flagged for a closer look

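For 15 members the change under ONECUT2 overexpression differed between LNCaP and 22Rv1 by the test of the difference itself (limma, adjusted p under 0.05). The values are the change in LNCaP minus that in 22Rv1, on the log2 scale. The change was higher in LNCaP for GPM6A (4.0), BASP1 (3.16), STMN3 (2.93), NLGN1 (2.82), NEFH (2.43), CACNA2D1 (1.66), KIF5C (1.40), PLXNA2 (0.87) and TUBB3 (0.46). It was lower in LNCaP for NCAN (-5.10), SEMA3C (-3.45), CNTN1 (-1.25), L1CAM (-1.18), CACNA1D (-0.77) and VAMP2 (-0.62). GPM6A, CACNA2D1, NCAN and CNTN1 stayed under 4 on all 6 LNCaP arrays, and NLGN1 passed 4 there on 1 array. For these 5 genes LNCaP was at background, so the value restates the change in 22Rv1, and its exact size and place in the order carry no meaning. NEFH, PLXNA2, BASP1 and L1CAM read under 4 in LNCaP control, and with values under 4 set to 4 the differences of NEFH and PLXNA2 were not called. The values of NEFH and SEMA3C include LNCaP overexpression replicate 1, which read apart from replicates 2 and 3.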

How the results depend on the processing

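Over 7 comparisons and all alternatives, 4938 of 5201 member values kept their direction and side of the threshold, 138 lost the call, 119 gained it and 6 turned direction. There were 14 tested members with 2 or more probe sets above 4 on at least 3 arrays. All such probe sets of a gene had the same call for 9 of the 14 in 22Rv1 overexpression and 8 in LNCaP overexpression, with opposite calls in 0. PLXNA2 in 22Rv1 overexpression was 0.26 as the mean of its probe sets and 0.97 with the probe set of largest variance, which also gave -0.94 for its difference between lines, 0.60 for CACNA1D in LNCaP overexpression and -1.32 for MAP1B between scramble and control. MAP1B in LNCaP overexpression ranged from -0.30 to 0.41 when 1 array was left out. With only the arrays compared, the number of members called was 10 in LNCaP overexpression, 17 between shRNA and scramble and 14 between shRNA and control. With array weights it was 20 between shRNA and scramble, 16 between scramble and control and 13 between shRNA and control, and the mean of probe sets gave 4 in the last. When 1 array was left out it ranged from 14 to 23 in 22Rv1 overexpression, 11 to 20 in LNCaP overexpression, 10 to 16 between shRNA and scramble, 12 to 18 for the difference, 9 to 15 between scramble and control and 1 to 11 between shRNA and control. ONECUT2 in 22Rv1 overexpression ranged from 0.49 to 0.62. Over all genes, 3593 were called between shRNA and scramble (6836 with array weights, 5458 without LNCaP overexpression replicate 1), 2659 between scramble and control (4629 with only these arrays, 6401 with array weights, 4637 without that replicate) and 542 between shRNA and control (1977, 3403 and 1933, with 198 the lowest when 1 array was left out). Where these counts moved, the cause was not tested. With the replicate number as a block, the members called were 19 in 22Rv1 overexpression, 16 in LNCaP overexpression, 11 between shRNA and scramble, 15 for the difference, 23 between the control lines, 11 between scramble and control and 2 between shRNA and control. Same-numbered arrays had correlations of deviations between -0.22 and 0.43, not all above 0.1. Arrays of different numbers were not compared, so these values cannot show whether same-numbered arrays share more than a number. Quantile normalization moved the median of all genes in LNCaP overexpression to 0.13. Values under 4 carry no order.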
